A study of Mus musculus with 16 samples.

Results

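The Ly6 family and *Plac8* are genes by which mouse monocytes are told from mature macrophages, and their signal was followed here in bone marrow-derived macrophages (BMDM) with and without the kinase CaMKK2. The genes are *Ly6a*, *Ly6c1*, *Ly6c2*, *Ly6e*, *Ly6i* and *Plac8*, and they were found by their symbol in the probe annotation of the array. A probe set carried the symbol of 5 of these 6 genes, 1 probe set each, among 19505 genes measured in all, and *Ly6a* is not analysed here. RNA was hybridised to 16 mouse Affymetrix arrays, which hold WT and *Camkk2*-/- cells grown in regular medium (RM) or in tumor-conditioned medium (TCM), with 4 arrays in each of these 4 groups. WT cells were *Camkk2* +/+, and *Camkk2*-/- cells came from mice that lack the gene in all cells, so that marrow progenitors and the cells around them lacked it too. All mice were females of 10 to 12 weeks, and all cultures held 30% L929-conditioned medium, which supplies the growth factor CSF1, for 5 days. TCM came from the mouse mammary tumor line E0771 and was added at 20% by the sample labels and at 25% by the methods, and RM cultures received none. The 4 biological replicates of a genotype were made from the bones of 16 mice. The sources used here do not say how mice were shared out among replicates, or whether the RM and TCM cultures with the same number shared marrow.

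Ly6 proteins are small, cysteine-rich proteins that are held at the outer face of the plasma membrane by a glycosylphosphatidylinositol (GPI) anchor, and in the mouse many of their genes form a cluster on chromosome 15. The products of *Ly6c1* and *Ly6c2* make up Ly6C, the surface antigen that marks classical (inflammatory) monocytes and that is lost as these cells mature into macrophages. *Ly6a* encodes the stem cell antigen Sca-1, *Ly6e* is a broadly expressed member that interferon induces, and *Ly6i* is a less studied member of the same cluster. *Plac8*, on chromosome 5, encodes a small cysteine-rich protein without a GPI anchor that is abundant in myeloid progenitors, neutrophils, monocytes and plasmacytoid dendritic cells. Several of these genes respond to interferon, so a list of interferon-stimulated genes was read beside the lists of cell type markers.

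Promoter windows are shown for *Ly6c1*, *Ly6c2* and *Plac8*, whose signal moved together over the groups. The windows are from RefSeq on GRCm38.p6, run from 250 bases before to 50 bases after the annotated start, and are the first of the windows listed for each gene. *Ly6a*, *Ly6e* and *Ly6i* were not matched. Capitals mark matches, on either strand, to 4 motifs: GAAANNGAA, the core of the interferon-stimulated response element, GAGGAAGT, the core of sites of the myeloid ETS factor PU.1, the CCAAT box and TATAAA. All 3 windows lie on the minus strand, *Ly6c1* at chr15:75048788-75049087, *Ly6c2* at chr15:75111922-75112221 and *Plac8* at chr5:100572156-100572455.
Ly6c1: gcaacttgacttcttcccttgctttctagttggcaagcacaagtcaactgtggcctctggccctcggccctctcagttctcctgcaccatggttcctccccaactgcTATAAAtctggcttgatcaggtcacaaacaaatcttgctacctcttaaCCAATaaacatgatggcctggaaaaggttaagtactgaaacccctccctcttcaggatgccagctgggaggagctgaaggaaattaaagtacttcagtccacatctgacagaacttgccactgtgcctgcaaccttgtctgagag
Ly6c2: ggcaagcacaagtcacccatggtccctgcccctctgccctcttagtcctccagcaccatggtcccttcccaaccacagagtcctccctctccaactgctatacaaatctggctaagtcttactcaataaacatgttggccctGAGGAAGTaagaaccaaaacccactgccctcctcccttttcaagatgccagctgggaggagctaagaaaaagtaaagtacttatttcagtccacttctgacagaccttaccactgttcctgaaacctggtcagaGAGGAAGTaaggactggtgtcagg
Plac8: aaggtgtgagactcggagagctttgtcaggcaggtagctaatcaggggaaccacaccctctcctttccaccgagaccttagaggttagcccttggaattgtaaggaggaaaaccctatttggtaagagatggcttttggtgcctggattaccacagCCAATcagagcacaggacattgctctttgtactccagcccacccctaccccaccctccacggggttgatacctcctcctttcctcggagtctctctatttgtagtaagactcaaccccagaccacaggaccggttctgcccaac
The *Ly6c1* and *Ly6c2* windows matched at 214 of 260 aligned bases (82.3%), with 28 bases in gaps. The complete motifs within them differed, in part because of where the windows end. The *Ly6c2* window held GAGGAAGT at 2 places, at -108 to -101 and at 26 to 33 counted from the start base as 0, and the *Ly6c1* window shown held none. The window of a second annotated start of *Ly6c1*, not printed, held it at -127 to -120. That copy begins in the last bases of the *Ly6c1* window shown, which cuts it off. The letters after it, aaggactggtgt, also follow the *Ly6c2* copy at 26 to 33, so this place is not a difference between the genes. The *Ly6c1* window held TATAAA at -143 to -138 and CCAAT at -95 to -91, and the *Plac8* window held CCAAT at -94 to -90. GAAANNGAA occurred in none of the 3 windows, which says only that these letters are not there. Of 32851 windows of this length, 8.56% held GAAANNGAA, 3.2% GAGGAAGT, 37.4% CCAAT and 13.6% TATAAA. The motifs do not overlap within these windows. Because the sequences of *Ly6c1* and *Ly6c2* are near copies, a probe set made for one may also bind RNA of the other, which was not tested, and the split of the signal between them is uncertain.

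The values are log2 signals of probe sets as deposited, so a difference of 1 is a 2-fold change, and they cannot be compared between probe sets. Probe sets of antigenomic sequence, which serve as background, had a median of 5.37. The means of these 23 probe sets ran from 2.48 to 6.82, so a signal within that range is not clearly above or below background. The signal of *Camkk2* was 9.59 ± 0.34 and 9.51 ± 0.25 (SD, n = 4) in WT RM- and TCM-BMDM against 6.74 ± 0.67 and 7.65 ± 0.46 in the *Camkk2*-/- groups, so the arrays carried the labelled genotypes. In *Camkk2*-/- cells a signal remained, 1.37 above the background median in RM and 2.29 in TCM. It was 0.91 higher in TCM than in RM (limma, adjusted p = 0.0382), and the source of this signal was not tested. The macrophage markers *Adgre1* (F4/80), *Itgam* (CD11b) and *Csf1r* lay between 14.97 and 17.58 on every array, far above background, as the label BMDM asks. By flow cytometry the paper describes most of the BMDM as positive for CD11b and F4/80 and negative for Ly6C. The arrays measure RNA and not surface protein, so a rise of Ly6C RNA below does not show Ly6C-positive cells. Endothelial cells are the other main source of *Ly6c1*, and 5 of 6 endothelial markers were below the background median in every group. Of 8 measured markers of T and NK cells, 4 had a mean above it. WT TCM replicate 3 stood apart from the rest: it was the lowest of its 4 arrays for every one of the 5 genes, and its values touch each comparison with WT TCM-BMDM below. These are bulk samples, in which fewer cells of a type and less RNA per cell cannot be told apart.

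The comparisons used a limma fit to the 16 arrays with Benjamini-Hochberg adjustment over 19505 genes, and a gene was called at an adjusted p under 0.05. Both Ly6C genes, *Ly6i* and *Plac8* rose in TCM in both genotypes, 15.5- to 20.7-fold in WT and 19.3- to 61.7-fold in *Camkk2*-/- BMDM, and *Ly6e* passed the test in neither. Of the 5 genes, 4 were higher in TCM in WT cells, where 2.21% of all genes were, and 4 in *Camkk2*-/- cells, where 6.13% of all genes were. The median log2 fold change of the 5 genes was 4.04 in WT and 4.40 in *Camkk2*-/- cells, beside 0.04 and 0.01 over all genes. In *Camkk2*-/- against WT TCM-BMDM 2 of 5 genes were called higher, *Plac8* and *Ly6i*, against 2.7% of all genes, and 4 of 5 had an unadjusted p under 0.05, as 15.3% of all genes did. In *Camkk2*-/- against WT RM-BMDM 0 of 5 were called, against 0.446% of all genes, although 4 of 5 had an unadjusted p under 0.05, as 8.21% of all genes did. The medians of these differences were 1.88 in TCM and 1.47 in RM, beside -0.02 and 0.02 over all genes. The group means of every one of the 5 genes came in the same order, lowest in WT RM, then *Camkk2*-/- RM, then WT TCM, and highest in *Camkk2*-/- TCM. How many of all genes share this order was not counted. For *Ly6e* the steps were 0.15, 0.13 and 0.14, with overlapping arrays and none called, and *Ly6c1* and *Ly6c2* may share RNA.

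**Figure D1:**
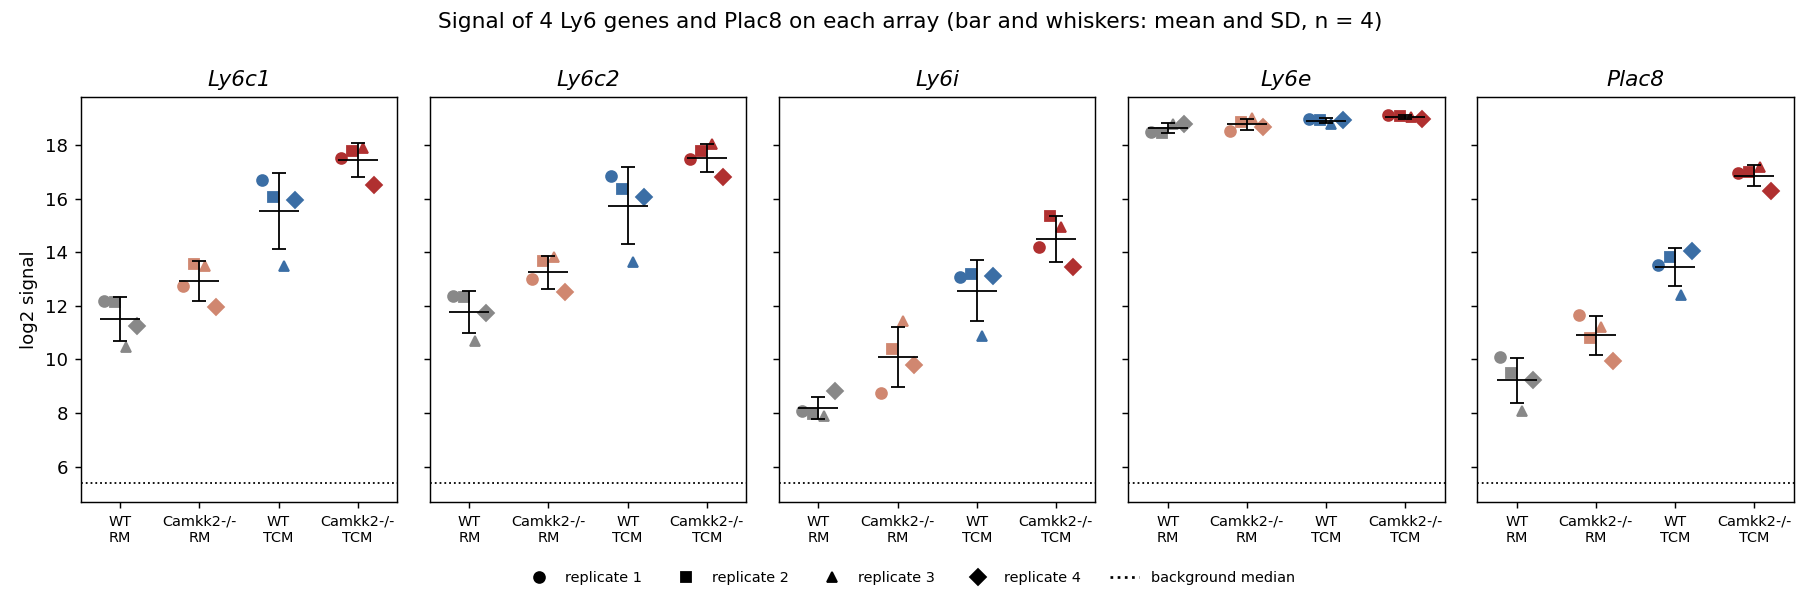
The log2 signal of the 5 genes (vertical axis) on each of the 16 arrays in the 4 groups, with the mean and SD of each group (n = 4) and the background median of 5.37 as a dotted line. The TCM arrays of *Ly6c1*, *Ly6c2*, *Ly6i* and *Plac8* lie above the RM arrays of the same genotype, and *Ly6e* lies between 18.43 and 19.11 on every array.

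*Ly6c2*, the Ly6C gene used most by monocytes, read 12.36, 12.33, 10.67 and 11.74 in WT RM-BMDM (replicates 1 to 4, the order used throughout) and 12.999, 13.68, 13.81 and 12.50 in *Camkk2*-/- RM-BMDM. In TCM it read 16.84, 16.38, 13.63 and 16.07 in WT and 17.48, 17.77, 18.04 and 16.80 in *Camkk2*-/- BMDM. All TCM arrays were above all RM arrays of their genotype, all *Camkk2*-/- RM arrays were above all WT RM arrays, and in TCM the genotypes overlapped by a single array each. TCM raised *Ly6c2* 15.5-fold in WT (log2 3.95, standard error (SE) 0.52, adjusted p = 0.00013) and 19.3-fold (log2 4.27, SE 0.52, adjusted p = 8.46e-06) in *Camkk2*-/- cells. The difference between genotypes was 1.79 (95% confidence interval 0.70 to 2.87, adjusted p = 0.0554) in TCM and 1.47 (0.39 to 2.56, adjusted p = 0.326) in RM, which did not pass the test.

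*Ly6c1*, the near copy that endothelial cells use, read 12.19, 12.13, 10.47 and 11.23 in WT RM-BMDM and 12.73, 13.55, 13.47 and 11.96 in *Camkk2*-/- RM-BMDM. In TCM it read 16.70, 16.08, 13.47 and 15.95 in WT and 17.54, 17.77, 17.90 and 16.51 in *Camkk2*-/- BMDM. It followed *Ly6c2* array by array (Pearson r = 0.999 over the 16 arrays and 0.989 for deviations from the group means, both of probe sets that may share RNA). TCM raised it by 4.04 on the log2 scale in WT (SE 0.54, adjusted p = 0.000154) and by 4.50 in *Camkk2*-/- cells (SE 0.54, adjusted p = 7.42e-06). Between genotypes it differed by 1.88 (0.75 to 3.01, adjusted p = 0.0529) in TCM and 1.42 (0.29 to 2.55, adjusted p = 0.404) in RM, and the groups overlapped in both media. In TCM the adjusted p of both Ly6C genes lay close to the threshold, and which side they fell on depended on the fit and on single arrays. Over 27 alternatives *Ly6c1* stayed uncalled in 20 and *Ly6c2* in 21. Neither passed in a fit to the 8 arrays compared (limma, adjusted p = 0.0951 for *Ly6c1* and 0.108 for *Ly6c2*) or with trend and robust variance (0.148 and 0.15). Both passed with the replicate number as a block (adjusted p = 0.0281 for *Ly6c1* and 0.0369 for *Ly6c2*), with array weights (0.0316 and 0.0352) and with the 40% of genes of lowest signal left out (0.0403 and 0.042). They also passed without WT RM replicate 3 (adjusted p = 0.0461 for *Ly6c1* and 0.0436 for *Ly6c2*), without WT TCM replicate 1 (0.0214 and 0.0218) or without *Camkk2*-/- TCM replicate 4 (0.0342 and 0.045), and *Ly6c1* also without *Camkk2*-/- RM replicate 4 (0.047). Without WT TCM replicate 3 the differences were 1.19 (adjusted p = 0.17) and 1.09 (adjusted p = 0.162).

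*Ly6i* lies in the same cluster, between *Ly6e* and the Ly6C genes. It read 8.08, 7.96, 7.90 and 8.81 in WT RM-BMDM and 8.76, 10.41, 11.43 and 9.79 in *Camkk2*-/- RM-BMDM, with SDs of 0.42 and 1.12. In TCM it read 13.07, 13.19, 10.86 and 13.13 in WT and 14.21, 15.37, 14.96 and 13.46 in *Camkk2*-/- BMDM. Only WT TCM replicate 3 stood apart among the WT TCM arrays, and every *Camkk2*-/- TCM array was above every WT TCM array. TCM raised *Ly6i* 20.7-fold in WT (log2 4.37, SE 0.52, adjusted p = 6.23e-05) and 21.1-fold in *Camkk2*-/- cells (log2 4.40, SE 0.52, adjusted p = 6.8e-06). It was 3.82-fold higher in TCM without CaMKK2 (log2 1.93, 0.84 to 3.03, adjusted p = 0.0382) and differed by 1.91 (0.81 to 3.00, adjusted p = 0.13) in RM. The call in TCM was lost without WT TCM replicate 3 (log2 1.37, adjusted p = 0.144), without *Camkk2*-/- TCM replicate 1, 2 or 3 (adjusted p = 0.0636, 0.143 and 0.12) and without WT RM replicate 2 (0.0539). In RM it was gained without *Camkk2*-/- RM replicate 1 (log2 2.35, adjusted p = 0.0362) or WT TCM replicate 3 (0.0359).

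*Plac8* showed the largest difference between genotypes in TCM of the 5 genes. It read 10.08, 9.48, 8.09 and 9.21 in WT RM-BMDM and 11.66, 10.81, 11.22 and 9.94 in *Camkk2*-/- RM-BMDM. In TCM it read 13.52, 13.82, 12.41 and 14.04 in WT and 16.97, 17.00, 17.19 and 16.27 in *Camkk2*-/- BMDM. The lowest *Camkk2*-/- TCM array was 2.24 above the highest WT TCM array, a gap larger than the SD within any of the 4 groups, while in RM the genotypes overlapped. TCM raised *Plac8* 18.8-fold in WT (log2 4.23, SE 0.40, adjusted p = 2.87e-06) and 61.7-fold in *Camkk2*-/- cells (log2 5.95, SE 0.40, adjusted p = 8.08e-09). In TCM it was 10.6-fold higher without CaMKK2 (log2 3.41, 2.57 to 4.25, adjusted p = 4.19e-05), and this call held in all 27 alternative settings, with log2 fold changes of 3.06 to 3.61. In RM the difference was 1.69 (0.86 to 2.53) with an adjusted p of 0.055, which passed the threshold without WT RM replicate 1 (0.0234), *Camkk2*-/- RM replicate 4 (0.0155) or WT TCM replicate 3 (0.023).

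*Ly6e* was near the top of the scale in every group. It read 18.49, 18.43, 18.78 and 18.79 in WT RM-BMDM and 18.53, 18.88, 19.02 and 18.68 in *Camkk2*-/- RM-BMDM. In TCM it read 18.98, 18.92, 18.78 and 18.94 in WT and 19.11, 19.09, 19.04 and 18.97 in *Camkk2*-/- BMDM. The groups overlapped in every comparison, and the highest signal of any probe set on an array was 19.26 to 19.56. TCM changed *Ly6e* by 0.28 in WT (-0.02 to 0.59, adjusted p = 0.409) and by 0.27 in *Camkk2*-/- cells (-0.03 to 0.58, adjusted p = 0.273), and the genotypes differed by 0.14 in TCM (-0.16 to 0.45, adjusted p = 0.746) and by 0.15 in RM (adjusted p = 0.906).

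**Figure D2:**
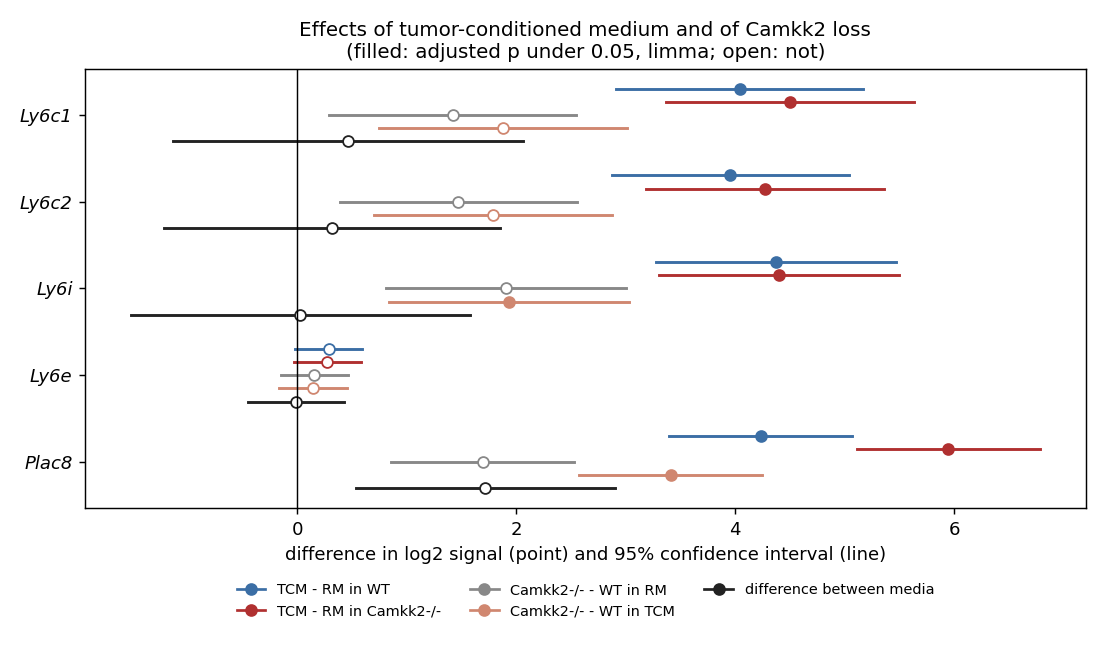
The difference in log2 signal (horizontal axis, points) with its 95% confidence interval (lines) for each gene in 5 comparisons, filled where the adjusted p was under 0.05. The TCM effects of *Ly6c1*, *Ly6c2*, *Ly6i* and *Plac8* lie between 3.95 and 5.95, the genotype effect of *Plac8* in TCM is 3.41, and every interval of *Ly6e* covers 0.

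Whether TCM acted differently in *Camkk2*-/- cells was tested by the interaction, the TCM effect in *Camkk2*-/- minus that in WT cells. No gene of the 5 passed after adjustment, where 0.144% of all genes did in either direction, and 1 of 5, *Plac8*, had an unadjusted p under 0.05, as 8.17% of all genes did. For *Plac8* the interaction was 1.72 (0.53 to 2.90, adjusted p = 0.351), and it stayed between 1.37 and 2.09 over the alternatives. For *Ly6c1* it was 0.46 (-1.14 to 2.06), for *Ly6c2* 0.32 (-1.22 to 1.85) and for *Ly6i* 0.03 (-1.52 to 1.58), intervals that leave room for a difference of more than 2-fold either way. For *Ly6e* it was -0.01 (-0.45 to 0.42). In the order of the levels, *Camkk2*-/- RM-BMDM and WT TCM-BMDM are neighbors, a pair chosen from the group means themselves. WT TCM was higher (limma) for *Ly6c1* (adjusted p = 0.00542), *Ly6c2* (0.00602), *Ly6i* (0.00684) and *Plac8* (0.00046), but not for *Ly6e* (0.717). The share of all genes was not computed for this pair. Arrays of these groups overlapped for every gene except *Plac8* (gap 0.75).

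Some markers of Ly6C-high monocytes other than the Ly6 genes rose in TCM. Of 9 in the list 8 were measured, of which 4 were higher in TCM in WT cells and 3 in *Camkk2*-/- cells, with medians of 1.88 and 1.53 and 0 called lower. Of all genes 2.21% and 6.13% were higher. *Ms4a4c*, a membrane protein of classical monocytes, rose by 3.04 (adjusted p = 6.23e-05) in WT and 3.47 (adjusted p = 1.46e-06) in *Camkk2*-/- cells, and *Hp*, the hemoglobin-binding protein haptoglobin, by 3.78 (adjusted p = 4.87e-05) and 2.80 (adjusted p = 0.000144). *Vcan*, a matrix proteoglycan, rose by 2.43 (adjusted p = 0.0145) and 2.62 (adjusted p = 0.00221), and *F13a1*, a subunit of coagulation factor XIII, by 1.94 (adjusted p = 0.027) in WT cells, with group means of 12.11 in WT and 11.69 in *Camkk2*-/- TCM-BMDM. Between genotypes 1 of 8 was higher in TCM, *Ms4a4c* (log2 1.48, adjusted p = 0.0207), and 1 of 8 in RM, *Hp* (log2 2.11, adjusted p = 0.0197), with medians of 0.81 and 0.60. The shares of all genes higher were 2.7% in TCM and 0.446% in RM. The mean of the list ran from 11.16 to 12.22 in WT RM, 11.67 to 12.58 in *Camkk2*-/- RM, 12.14 to 13.97 in WT TCM and 12.99 to 13.95 in *Camkk2*-/- TCM, so that the genotypes overlapped in both media. The WT count fell from 4 to 2 without WT RM replicate 4 or WT TCM replicate 2. The count in TCM fell from 1 to 0 without WT TCM replicate 3 or any of *Camkk2*-/- TCM replicates 1 to 3, rose to 2 without *Camkk2*-/- TCM replicate 4, and that in RM fell to 0 without WT RM replicate 2 or 3 or any of *Camkk2*-/- RM replicates 1 to 3.

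Markers of other cells that express Ly6C or *Plac8* were read the same way. Of 11 measured neutrophil markers, 5 were higher in TCM in WT and 6 in *Camkk2*-/- cells, and 2 were higher in TCM in *Camkk2*-/- than in WT cells, with none called lower. The medians of these markers were 1.00, 1.68 and 0.71, and the shares of all genes called higher were 2.21%, 6.13% and 2.7%. In every group 1 neutrophil marker, among the 6 called in *Camkk2*-/- cells, had a mean below the background median. *S100a8* and *S100a9*, the calprotectin subunits, rose by 2.10 and 2.04 in WT (adjusted p = 0.00291 and 0.00306) and by 2.86 and 2.91 in *Camkk2*-/- cells (adjusted p = 2.15e-05 and 1.46e-05). *Csf3r*, the receptor of G-CSF, and *Cxcr2*, a chemokine receptor, were higher in *Camkk2*-/- TCM-BMDM by 0.93 (adjusted p = 0.0273) and 0.94 (adjusted p = 0.03). The mean of the neutrophil list was 8.43 to 9.23 in WT RM, 8.72 to 9.60 in *Camkk2*-/- RM, 9.52 to 10.59 in WT TCM and 10.35 to 11.46 in *Camkk2*-/- TCM. Leaving out WT RM or WT TCM replicate 2 lowered the WT count to 3, leaving out WT TCM replicate 3 raised the *Camkk2*-/- count to 10, and the count between genotypes in TCM fell to 0 without WT TCM replicate 2 or 3 or any of *Camkk2*-/- TCM replicates 1 to 3.

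Of 7 measured markers of plasmacytoid dendritic cells, 3 were higher in TCM in *Camkk2*-/- than in WT cells and 0 in RM (limma, 1 at an unadjusted p under 0.05). Of all genes 2.7% and 0.446% were higher. The 3 markers were *Ccr9*, a chemokine receptor (log2 3.31, adjusted p = 0.00037), *Siglech*, a surface lectin (1.51, adjusted p = 0.0113), and the ETS factor *Spib* (1.38, adjusted p = 0.00214). Group means in WT and *Camkk2*-/- TCM-BMDM were 4.63 and 7.94 for *Ccr9* and 5.19 and 6.57 for *Spib*. Both WT means were below the background median, so the sizes of these differences are uncertain. The mean of the list was 6.85 to 7.44 in WT RM, 7.22 to 8.13 in *Camkk2*-/- RM, 6.71 to 7.19 in WT TCM and 7.88 to 8.93 in *Camkk2*-/- TCM, without overlap between the genotypes in TCM. Of these markers 0 were called for TCM in WT cells (limma, 2 at an unadjusted p under 0.05) and 2 in *Camkk2*-/- cells, *Cox6a2* (1.78, adjusted p = 0.00195) and *Spib* (0.81, adjusted p = 0.0435, mean in RM 5.76), a count that was 1 without WT RM replicate 2 or 3, *Camkk2*-/- RM replicate 1, 3 or 4, WT TCM replicate 2 or 4, or *Camkk2*-/- TCM replicate 2 or 3. Of 6 stem and progenitor markers, 2 rose in WT TCM-BMDM, *Mpo* of myeloid progenitors (2.62, adjusted p = 0.0118) and *Cd34* (1.16, adjusted p = 0.0291). The mean of *Cd34* in WT RM was 5.01, below the background median, so the size of its rise is uncertain. In *Camkk2*-/- TCM-BMDM 3 rose, *Mpo* (2.04), *Kit* (0.97) and *Flt3* (0.75), the last of these with means below background in all groups. Beside the TCM counts of both lists, 2.21% of all genes were higher in TCM in WT and 6.13% in *Camkk2*-/- cells. The WT count of progenitor markers was 1 without WT RM or WT TCM replicate 3 or 4, and their *Camkk2*-/- count was 0 without *Camkk2*-/- RM replicate 4 or *Camkk2*-/- TCM replicate 3. The part of neutrophils, plasmacytoid dendritic cells or progenitors in the signal of the Ly6 genes and *Plac8* was not tested.

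Markers of mature macrophages were called in both directions. Of 6 measured, 3 fell in TCM in *Camkk2*-/- BMDM, where 5.37% of all genes fell, *Adgre1* by 1.15 (adjusted p = 2.12e-05), *Csf1r* by 0.81 (adjusted p = 0.00179) and *Itgam* by 0.54 (adjusted p = 0.0174), while *Fcgr1*, the interferon-inducible high-affinity IgG receptor, rose by 1.53 (adjusted p = 1.74e-05). In WT cells *Fcgr1* rose by 1.22 (adjusted p = 0.0011) and no marker fell. Between genotypes in TCM 1 of 6, *Adgre1*, was lower by 0.58 in *Camkk2*-/- cells (adjusted p = 0.0292), where 1.79% of all genes were lower, a call lost without any of WT TCM replicates 1, 2 and 3 or *Camkk2*-/- TCM replicates 1, 3 and 4. Of 8 markers of Ly6C-low monocytes, which patrol the vessel wall, *Gngt2* rose by 0.97 in WT and 1.14 in *Camkk2*-/- cells and *Nr4a1*, the nuclear receptor these cells depend on, fell by 0.94 in *Camkk2*-/- cells. The call of *Gngt2* in WT cells was lost without WT RM replicate 2 or WT TCM replicate 4, and that of *Nr4a1* without *Camkk2*-/- RM replicate 1, 2 or 3 or TCM replicate 1, 2 or 4. In this list 0 differed between genotypes in either medium (limma, 2 at an unadjusted p under 0.05 in each). No endothelial or B cell marker was called in any of the 4 comparisons by limma, with at most 2 at an unadjusted p under 0.05, though 1 endothelial marker rose in TCM without WT RM replicate 1 and 1 B cell marker was higher between genotypes in TCM without *Camkk2*-/- TCM replicate 1. Of 8 T and NK cell markers *Klrb1c* fell by 0.88 in TCM in *Camkk2*-/- cells (adjusted p = 0.0357, mean in TCM 5.49), a call lost without *Camkk2*-/- RM replicate 1, 3 or 4 or TCM replicate 1, 3 or 4.

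Of 23 measured interferon-stimulated genes, 18 rose in TCM in WT and 23 in *Camkk2*-/- cells (medians 1.42 and 2.09). In TCM 13 were higher in *Camkk2*-/- than in WT cells (median 1.11), with none called lower. The shares of all genes higher in these comparisons were 2.21%, 6.13% and 2.7%. *Bst2* had lower means without CaMKK2, 14.09 against 16.015 in RM and 16.329 against 17.075 in TCM, and was called in neither. *Isg15*, a ubiquitin-like protein, rose by 2.17 (adjusted p = 6.23e-05) in WT and 3.62 (adjusted p = 1.52e-08) in *Camkk2*-/- cells. The GTPases *Mx2* and *Mx1* were 2.79 (adjusted p = 0.000139) and 1.99 (adjusted p = 0.00143) higher in *Camkk2*-/- TCM-BMDM, and the interferon-induced *Xaf1* 1.78 (adjusted p = 0.00036). In RM 1 of 23 was higher in *Camkk2*-/- cells, where 0.446% of all genes were. The mean of the list was 11.57 to 12.85 in WT RM, 11.86 to 12.98 in *Camkk2*-/- RM, 12.84 to 13.96 in WT TCM and 14.63 to 14.97 in *Camkk2*-/- TCM. The count between genotypes in TCM dropped to 7 when WT TCM replicate 3, or replicate 1 or 2 of *Camkk2*-/- TCM-BMDM, was left out, and to 8 without replicate 3 of the latter. The WT count of 18 fell to between 7 and 9 without WT RM replicate 1 or 2 or WT TCM replicate 1, 2 or 4. The part of interferon in the signal of the 5 genes was not tested.

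Within groups the 5 genes did not all deviate with the same lists. Each array was set against its group mean, for the gene and for the mean of a list, which leaves out the differences between groups. The 16 points share arrays between gene and list, and the correlations are a description. The Ly6C genes were high on the arrays of a group on which monocyte markers were high, with r = 0.850 (Spearman's rho 0.815) for *Ly6c1* and 0.811 (0.774) for *Ly6c2*, and 0.748 and 0.672 without the 2 arrays farthest out, WT TCM replicates 3 and 1. *Plac8* did the same (r = 0.687, rho 0.562, 0.692 without these arrays). The Ly6C genes and *Plac8* also varied with neutrophil markers, with r of 0.830, 0.837 and 0.777, and with markers of Ly6C-low monocytes, with 0.812, 0.773 and 0.613. Without the 2 arrays farthest out for each list these values were 0.727, 0.765 and 0.630 with neutrophil markers. With markers of Ly6C-low monocytes they were 0.685, 0.632 and 0.426. So the within-group values do not part these lists, though *Plac8* had its lowest value with the Ly6C-low list. The interferon list gave 0.209, 0.261 and -0.232 for *Ly6c1*, *Ly6c2* and *Plac8*, and -0.315, -0.285 and -0.520 without the 2 arrays farthest out.

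For *Ly6e* the value with monocyte markers was 0.077. It was 0.771 (rho 0.797) with macrophage markers, 0.764 (rho 0.676) with interferon-stimulated genes and 0.694 (rho 0.697) with markers of plasmacytoid dendritic cells, and 0.731, 0.669 and 0.797 without the 2 arrays farthest out. Lists of T and NK cell markers and of GPI anchor genes gave 0.625 and 0.616, so *Ly6e* was not tied to the interferon list alone. *Ly6i* gave 0.441 with the monocyte list, which fell to 0.180 without the 2 arrays farthest out, and 0.673 with the interferon list, which fell to 0.341. It gave 0.627 with macrophage markers, 0.671 with markers of plasmacytoid dendritic cells and 0.653 with B cell markers, and 0.764, 0.630 and 0.603 without the 2 arrays farthest out. With markers of neutrophils and of Ly6C-low monocytes *Ly6i* gave 0.624 and 0.545, and 0.488 and 0.208 without the 2 arrays farthest out.

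**Figure D3:**
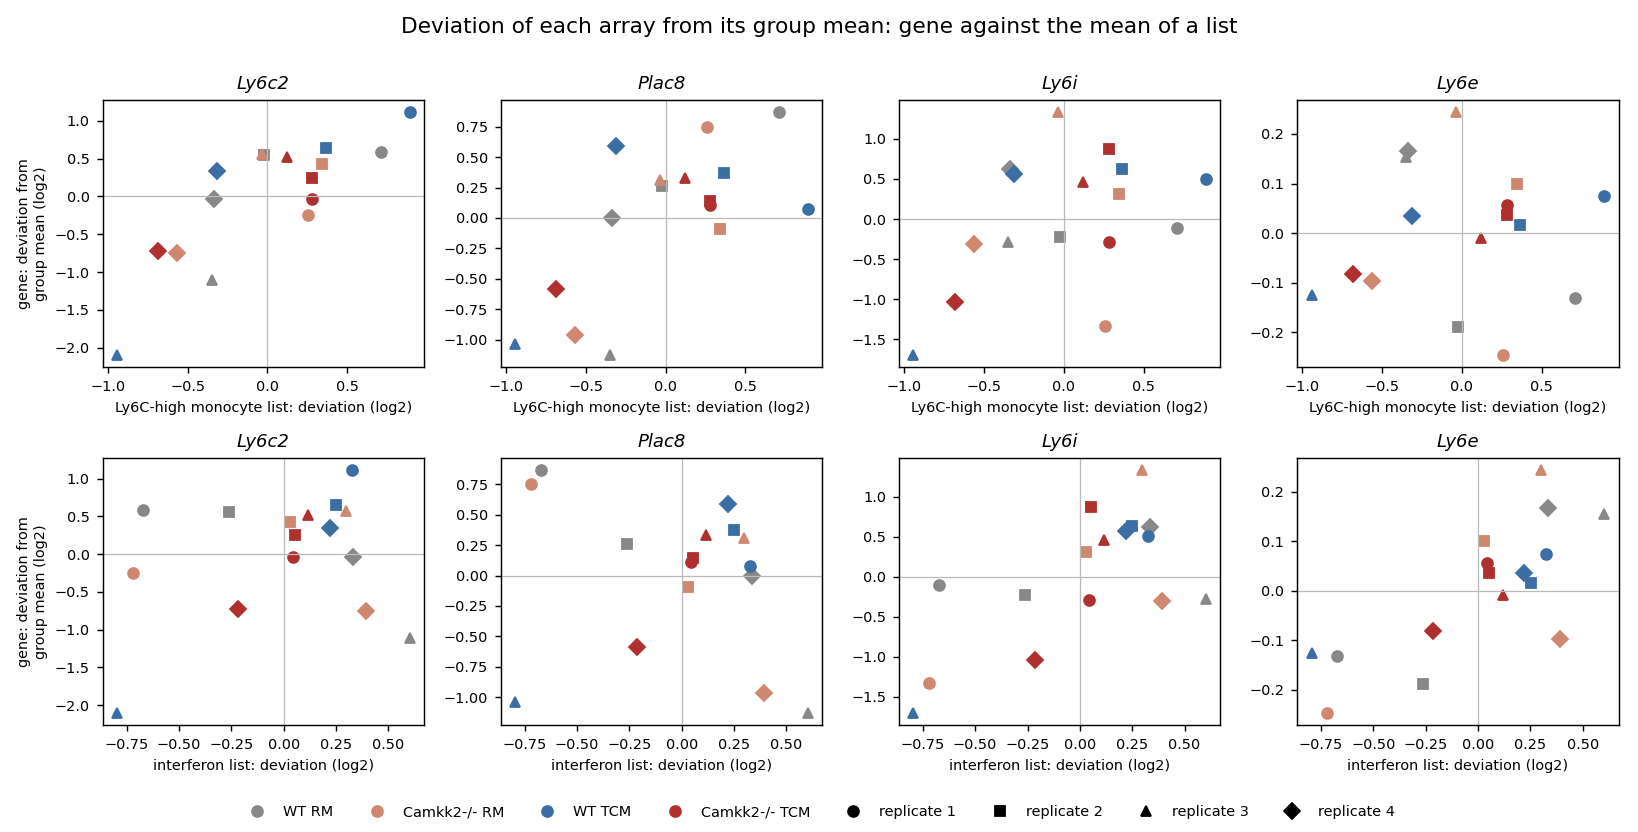
Deviation of each array from its group mean for 4 genes (vertical axes, log2) against the deviation of the mean of the Ly6C-high monocyte list (top) and of the interferon list (bottom), 1 point per array. *Ly6c2* and *Plac8* rise with the monocyte list (r = 0.811 and 0.687), *Ly6e* rises with the interferon list (r = 0.764, beside 0.771 with the macrophage list, not drawn), and WT TCM replicate 3 is the leftmost point for both lists.

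The genes most like each of the 5 over all 16 arrays were sought among 10679 genes with a mean above background. The values largely carry the differences between groups and have no test. *Ly6c1* and *Ly6c2* were most like *Ms4a4c* (r = 0.965 and 0.967) and *Klra2*, a lectin receptor of the Ly49 family (0.963 for both), followed by the monocyte chemokine *Ccl12* (0.962) for *Ly6c1* and the flagellin receptor *Tlr5* (0.960) for *Ly6c2*. *Ly6i* was most like *Cfb*, complement factor B (0.988), *Ms4a4c* (0.983) and *Slfn4*, a myeloid Schlafen gene (0.974). *Plac8* was most like *Klra2* (0.973), *Gm9733* (0.970) and the zinc finger factor *Klf6* (0.968). *Ly6e* was most like the interferon regulatory factor *Irf7* (0.958) and the oligoadenylate synthetase genes *Oasl2* (0.947) and *Oas3* (0.926).

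The rest of the Ly6 cluster on chromosome 15 was mostly not above background. Of 20 other genes of the cluster 14 were measured, and 3 had a mean above the background median. Of the 14, 2 rose in TCM in *Camkk2*-/- cells, *Ly6f* (2.28, adjusted p = 0.0031, group means 4.88 and 7.16) and *9030619P08Rik* (2.07, adjusted p = 0.0014, 5.30 and 7.37), both with RM means below the background median and so of uncertain size, and 0 in WT cells (limma, 3 at an unadjusted p under 0.05). Between genotypes 2 were higher in *Camkk2*-/- TCM-BMDM, *Ly6d*, known from B lymphoid progenitors and plasmacytoid dendritic cells (1.56, adjusted p = 0.00892, group means 5.44 and 7.0), and *Ly6k* (0.89, adjusted p = 0.0325), whose means were all below background. That count, beside 2.7% of all genes, was 1 without WT TCM replicate 1 or 2 or *Camkk2*-/- TCM replicate 3. For the TCM counts, 6.13% of all genes were higher in *Camkk2*-/- and 2.21% in WT cells.

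Ly6/uPAR genes elsewhere in the genome were called in both directions. Of 22 measured, *Plaur*, the urokinase receptor, rose in TCM in WT (0.73, adjusted p = 0.0442) and in *Camkk2*-/- cells (1.51, adjusted p = 1.49e-05), but was lower in *Camkk2*-/- than in WT cells by 2.05 in RM (adjusted p = 3.49e-06), where 0.292% of all genes were lower, and 1.28 in TCM (adjusted p = 0.000375). The GPI-anchored complement inhibitors *Cd59a* and *Cd59b* were lower in *Camkk2*-/- TCM-BMDM by 1.13 (adjusted p = 0.00336) and 0.83 (adjusted p = 0.00597), and in *Camkk2*-/- cells fell in TCM by 1.25 (adjusted p = 0.000429) and 0.55 (adjusted p = 0.0438). That pair of falls became 1 without WT RM replicate 3, *Camkk2*-/- RM replicate 1, 3 or 4, WT TCM replicate 2 or 4, or *Camkk2*-/- TCM replicate 1, 2 or 3. Beside 1.79% of all genes lower, the count lower in *Camkk2*-/- cells was 3 of 22 in TCM, and it stayed at 3 in TCM and 1 in RM without each array in turn, whereas the call of *Plaur* in WT cells was lost without any array other than WT RM replicate 1 and WT TCM replicate 3. The relatives of *Plac8*, *Plac8l1* and *Cnfn*, were below background in all groups, and neither had an unadjusted p under 0.05 in any of these comparisons (limma). Of 26 measured genes for synthesis and transfer of the GPI anchor, on which the Ly6 proteins depend, *Pigz* fell by 0.82 in TCM in *Camkk2*-/- cells (adjusted p = 0.0149), 1 of 26 where 5.37% of all genes fell, though not without *Camkk2*-/- TCM replicate 1 or 2, and 0 were called in the other 3 comparisons (limma, 2 to 4 at an unadjusted p under 0.05), with medians between -0.06 and 0.08.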

How the data were processed

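RNA of 16 BMDM cultures was labeled for Affymetrix whole-transcript arrays. The deposited values are log2 signals per probe set, made by the authors with Affymetrix Expression Console per the labels, and their normalization, genome build and annotation were not given in the sources used here. They ran from 1.63 to 19.6, were used as deposited, and had medians per array of 5.77 to 5.91. Of 28846 probe sets, 6640 controls were left out, and so were 2634 that carried no gene symbol or more than 1. The probe set of highest mean was kept for each of 19505 genes. Groups were compared with limma 3.58.1 in R 4.3.3 (4 group means, no covariates, eBayes), tested on simulated data first. The 4 arrays per group limit the precision.

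The genes and lists were chosen with earlier results of these data known. Text names the 6 genes, *Camkk2*, up to 4 list members with the smallest adjusted p per comparison or called against their list, and the 3 genes most correlated with each. *Bst2* is also named, because its means between genotypes ran against its list. Symbols and promoter windows (Biopython 1.88) came from RefSeq, GRCm38.p6. Alternatives were fits without each array, to the 8 arrays compared, with trend and robust variance, array weights, repeated quantile normalization, centred medians, without the 40% lowest genes, mean over probe sets, all probe sets, a replicate block, and other thresholds.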

Additional observations from a re-analysis of the deposited data

Results flagged for a closer look

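*Ly6i* on WT TCM replicate 3 read 10.86, far below the 13.07 to 13.19 of the other WT TCM arrays. The gap took up 0.946 of the range of the group, above Dixon's 95% critical value for 4 samples. It was the single value of this kind among 20 groups of 4 arrays (5 genes in 4 groups), and chance flags about 1 in 20 groups. The same array was the lowest of its group for *Ly6c1* (13.47), *Ly6c2* (13.63), *Plac8* (12.41) and *Ly6e* (18.78), whose gaps stayed under the critical value, and for the means of the Ly6C-high monocyte (12.14), neutrophil (9.52) and interferon (12.84) lists. It was also lowest for the macrophage (15.18), Ly6C-low monocyte (6.63), plasmacytoid dendritic cell (6.71) and B cell (4.86) lists. It was not lowest for the T and NK cell or progenitor lists, and was highest for the endothelial list (4.69). Over all genes its deviations from the group means had an SD of 0.355, the largest of any array.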

How the results depend on the processing

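The TCM effects called 4 of 5 genes in each genotype under all 27 alternatives, and the interaction called 0 under all 26. Between genotypes in TCM, 2 genes were called as reported, 1 in a fit to the 8 arrays alone, with trend and robust variance or at an adjusted p under 0.01, and 4 with array weights, without the 40% lowest genes or with the replicate block. Without single arrays 1 to 4 were called. In RM 1 gene, *Plac8*, was called with array weights, without the 40% lowest genes and with the replicate block, against 0 as reported, and 0 to 2 without single arrays. Same-numbered replicates deviated together weakly (24 pairs, r from -0.17 to 0.23, 8 over 0.1), and 6 of 16 arrays were most like their own number. Only RM and TCM arrays of the same genotype could share marrow. For these, r was 0.154, 0.185, -0.135 and 0.189 in WT cells (replicates 1 to 4). In *Camkk2*-/- cells it was 0.101, 0.027, 0.056 and 0.126. The number is not taken as a pairing.

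Interactions near 0, none called, changed sign: with array weights *Ly6c2* was -0.035 and *Ly6i* -0.25, with repeated quantile normalization *Ly6e* was 0.11 and *Ly6i* -0.056, and with centred medians *Ly6e* was 0.026. Without single arrays they ran from -0.23 to 0.84 (*Ly6c1*), -0.38 to 0.69 (*Ly6c2*), -0.093 to 0.070 (*Ly6e*) and -0.54 to 0.47 (*Ly6i*). The cause was not tested. Signal over background limits the lower ends of the lists, and *Ly6e* lies near the top of the scale.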
